A study of Mus musculus with 18 samples.

Results

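The Toll-like receptor genes Tlr1, Tlr2, Tlr3, Tlr4, Tlr6, Tlr7, Tlr8, Tlr9 and Tlr13, and Unc93b1, whose product carries the endosomal receptors, were followed in RAW cells, a single transformed mouse macrophage line. They were taken by gene symbol: 16 of the 45101 probe sets on the array were annotated to these 10 genes, and all 10 were among the 12257 genes tested. A gene's value is that of its brightest probe set on average over the 18 arrays, and any other probe sets served as a check. A filter level of 18.1, the median of all deposited values, had to be exceeded on 3 or more arrays. Of the 10 genes, 9 were above that level on all 18 arrays, and Tlr8 was above it on 5. Some markers of other cell types (below) also exceeded it, so passing it does not by itself show expression.

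The cells, kept in DMEM, were treated with R848 plus apilimod, with R848 plus API09, with R848 alone or with medium alone. R848 (resiquimod) is a small agonist of TLR7, apilimod inhibits the lipid kinase PIKfyve, and API09 is described by the submitters as an inactive relative of apilimod. The labels give R848 at 0.1 mM and each compound at 1 uM. That R848 dose is unusually high, so its unit may be wrong. RNA was taken at 1, 3, 7 and 22 h with 1 array per arm and hour, and 2 more medium arrays were taken at 0 h. The labels do not say whether arrays came from separate cultures, so p-values rest on a spread among arrays that may be technical.

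Toll-like receptors are membrane proteins of innate immune cells that bind microbial molecules and signal, through adaptor proteins, to NF-kB and interferon regulatory factors. TLR1, TLR2, TLR4 and TLR6 work mainly at the cell surface on lipoproteins and lipopolysaccharide, while TLR3, TLR7, TLR8, TLR9 and TLR13 sense nucleic acids inside endosomes. The endosomal receptors leave the endoplasmic reticulum with the membrane protein UNC93B1, and proteases of the endolysosome cut several of them into their active form.

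The median intensity was 17.5 to 19.2 on the 18 arrays. The R848+API09 array at 22 h had a median log2 level of 7.03 over the tested genes, against 7.19 to 7.38 for the others, so differences at 22 h that turn on it are also given with single control arrays. Of 9 macrophage markers, 8 were above 18.1 on all arrays, and Mrc1 had a median of 15.9. Of the markers of other cell types with a probe set, 1 of 4 B cell, 3 of 4 T cell, 2 of 4 dendritic cell, 0 of 2 neutrophil and 1 of 4 fibroblast or epithelial genes had a median above that level. The highest of these medians was 48.2, for Epcam, and their part in the results was not tested. As a check of the treatments, Tnf, an inflammatory cytokine gene, was higher in the R848 controls (below) than in medium by 3.82, 4.54, 3.48 and 2.97 on the log2 scale at 1, 3, 7 and 22 h. Gpnmb, a lysosomal stress gene, was higher with apilimod than in the R848 controls by 1.29, 2.61 and 3.05 at 3, 7 and 22 h.

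Differences below are on the log2 scale of the intensity plus 16, with the standard error, and the added 16 understates the change of dim genes. The R848+API09 and R848 arrays of an hour were pooled as R848 controls, since those 4 pairs and the medium pair at 0 h supply the only estimate of spread. A lone array is assumed to vary like these pairs. A gene passed at an adjusted p of 0.05 in limma with Benjamini-Hochberg adjustment over all 12257 genes. Values given for a gene's other probe sets come from a separate limma fit of the 24154 probe sets kept by the filter. Their p-values were adjusted over those probe sets. The total RNA of a culture cannot tell apart fewer cells of a kind and less RNA per cell.

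**Figure D1:**
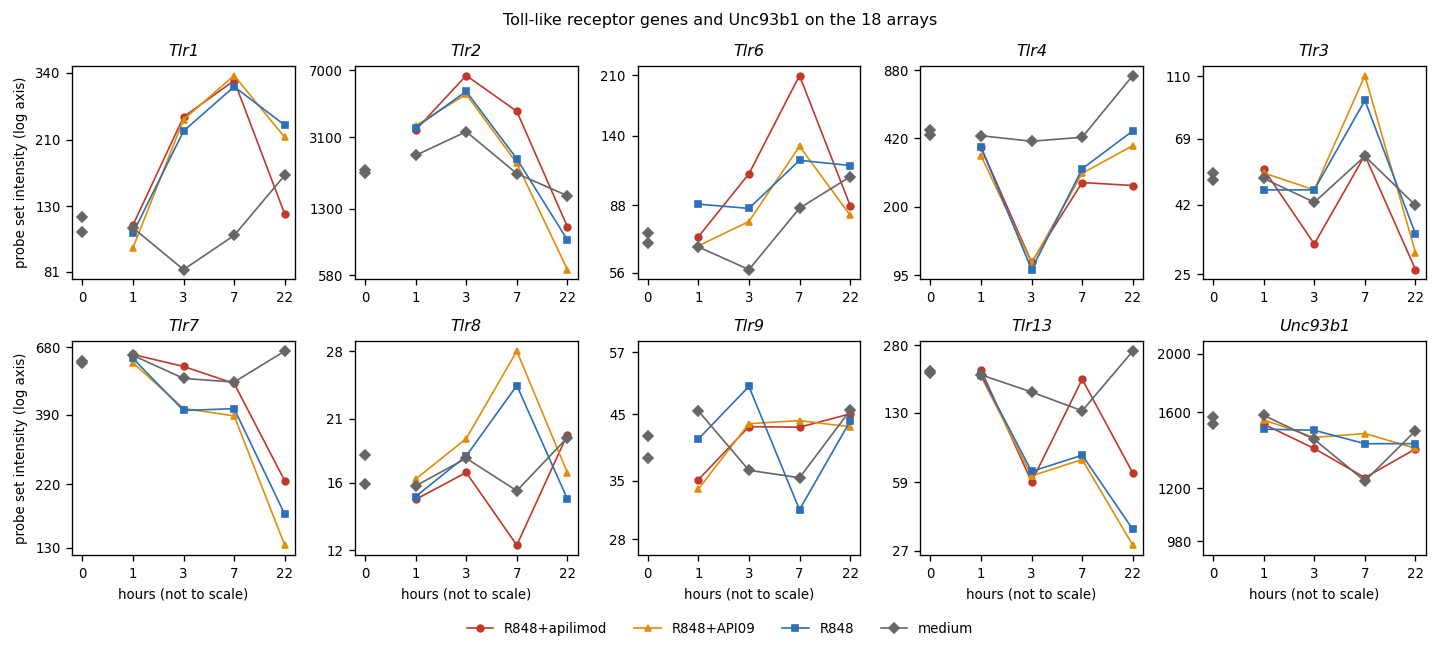
Probe set intensity (log axis, its range differing by gene) of the 10 genes at 0, 1, 3, 7 and 22 h (hours not to scale). Each point is 1 array, with R848+apilimod in red, R848+API09 in orange, R848 in blue and medium in grey; Tlr13 at 7 h stands at 190.3 with apilimod, against 76.3 and 80.1 on the control arrays.

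Relative to medium, R848 raised 2 of the 10 genes and lowered 2 at 3 h, where 6.23% of all genes were higher and 9.19% lower (15.4% in all). At 7 h it raised 3 and lowered 2, against 11.3% higher and 18.5% lower of all genes (29.8% in all). At 22 h it raised 1 and lowered 4, against 16.5% higher and 29.1% lower (45.7% in all), so 5 of 10 is close to the share of all genes. At 1 h none of the 10 passed in limma, 1 had an unadjusted p under 0.05 (Tlr2), and 0.702% of all genes passed. The surface receptor genes Tlr1 and Tlr2 were those raised at 3 h. Tlr13 was lowered at 3, 7 and 22 h, and so was Tlr4 by its main probe set, whose 7 h call its other probe sets did not share. The 5 genes called at 22 h (Tlr1, Tlr2, Tlr4, Tlr7 and Tlr13) passed there with either control array alone. The median difference of the 10 genes was -0.04, 0.07, 0.22 and -0.22 at the 4 hours, against -0.01, -0.03, -0.04 and -0.03 for all genes.

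Tlr1 encodes the partner with which TLR2 recognises triacylated lipopeptides. Its intensity was 114, 248, 322 and 123 with R848+apilimod at 1, 3, 7 and 22 h. It was 96.3, 243, 334 and 214 with R848+API09, and 107, 224, 308 and 233 with R848 alone. Medium arrays had 121 and 108 at 0 h, and 111, 82.4, 105 and 163 at the later hours. At 3 and 7 h all treated arrays lay above every medium array, and at 22 h the apilimod array was below the medium array of that hour. R848 raised Tlr1 by 1.34 ± 0.11 at 3 h (adjusted p = 6.84e-06), by 1.47 ± 0.11 at 7 h (adjusted p = 1.8e-06) and by 0.42 ± 0.11 at 22 h (adjusted p = 0.00802). With apilimod Tlr1 differed from the controls by at most 0.14 at 1, 3 and 7 h, which did not pass, and was lower at 22 h (-0.79 ± 0.11, adjusted p = 0.000221). Against medium, the apilimod array at 22 h differed by -0.36 ± 0.12 (adjusted p = 0.0319), a call lost when each array was centred on its median (-0.19, adjusted p = 0.187).

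Tlr2 encodes the shared chain of the lipopeptide receptors. With R848+apilimod it had 3380.1, 6554, 4241 and 1042 at 1, 3, 7 and 22 h. With R848+API09 it had 3565, 5219.9, 2254 and 619.7, and with R848 alone 3479, 5406, 2379.7 and 888. The medium arrays stood at 2005 and 2073 at 0 h, and at 2483, 3313, 1989.7 and 1521 afterwards. All treated arrays were thus above the medium array of the same hour at 1, 3 and 7 h and below it at 22 h. The rise with R848 passed at 3 h (0.68 ± 0.16, adjusted p = 0.0133), and the fall passed at 22 h (-1.02 ± 0.16, adjusted p = 0.000398). At 22 h it was -1.27 with R848+API09 as the only control and -0.76 with R848 alone. Differences of 0.50 ± 0.16 at 1 h and 0.22 ± 0.16 at 7 h did not pass. Without the R848+API09 array at 22 h, these last had adjusted p = 0.00552 and 0.0298 at the same differences.

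Apilimod held Tlr2 above the R848 controls at 7 h, by 0.87 ± 0.16 (adjusted p = 0.00219), and at 22 h, by 0.48 ± 0.16 (adjusted p = 0.0372). The 22 h result depended on the control array: it was 0.73 against R848+API09 and 0.23 against R848 alone (adjusted p = 0.414). The 22 h call was lost under 9 of 16 alternatives, a minimum difference of 1 included. Among them were a pseudocount of 1 (adjusted p = 0.0604), no filter (adjusted p = 0.0658) and leaving out either 0 h array. At 3 h the difference of 0.30 ± 0.16 did not pass. Relative to medium, Tlr2 with apilimod was higher by 0.98 ± 0.18 at 3 h and by 1.09 ± 0.18 at 7 h, and lower at 22 h (-0.54 ± 0.18, adjusted p = 0.0313).

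The promoter of Tlr2 is shown because it and that of Tlr3 were the ones, among 9 windows of 7 of the genes, with a match to the NF-kB motif. The windows run from 250 bases before to 50 after the start of the gene and come from RefSeq, mouse build GRCm38.p6. Tlr2, at chr3:83841559-83841858 on the minus strand, held 3 matches, a pair of which overlap, and Tlr3, at chr8:45410331-45410630 on the minus strand, held 1, starting at -211. Matches on either strand are in capitals, and 8.46% of the 32851 windows of 300 bases in the RefSeq table hold at least 1.
Tlr2: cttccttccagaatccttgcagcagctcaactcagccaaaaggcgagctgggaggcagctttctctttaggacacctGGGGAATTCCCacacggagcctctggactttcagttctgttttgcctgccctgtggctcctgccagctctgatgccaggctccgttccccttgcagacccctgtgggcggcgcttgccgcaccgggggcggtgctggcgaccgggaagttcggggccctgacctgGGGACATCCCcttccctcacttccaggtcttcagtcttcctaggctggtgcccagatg
Tlr3: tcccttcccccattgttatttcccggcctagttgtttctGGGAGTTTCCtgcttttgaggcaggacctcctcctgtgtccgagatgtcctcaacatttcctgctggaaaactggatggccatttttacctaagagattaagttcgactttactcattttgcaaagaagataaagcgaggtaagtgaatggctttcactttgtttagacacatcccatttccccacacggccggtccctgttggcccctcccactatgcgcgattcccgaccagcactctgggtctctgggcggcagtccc

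Tlr6 encodes the other partner of TLR2, for diacylated lipopeptides. It had 71.1, 108, 209 and 87.7 at 1, 3, 7 and 22 h with R848+apilimod. It had 67.0, 78.8, 130.4 and 82.3 with R848+API09, and 88.5, 86.0, 119 and 115 with R848 alone. Medium gave 68.5 and 73.0 at 0 h, and 66.5, 57.1, 86.2 and 106 later. The apilimod array at 7 h was the highest of all 18. R848 controls differed from medium by 0.43 ± 0.17 at 3 h (adjusted p = 0.127) and 0.46 ± 0.17 at 7 h (adjusted p = 0.062). Neither passed, although both did when each array was centred on its median (0.50 and 0.54). Apilimod raised Tlr6 over the controls at 7 h, by 0.68 ± 0.17 (adjusted p = 0.0135). Against the R848+API09 array alone that difference was 0.62 (adjusted p = 0.0504). Apilimod arrays were above medium by 0.77 ± 0.19 at 3 h (adjusted p = 0.0189) and by 1.14 ± 0.19 at 7 h (adjusted p = 0.000886).

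One of the Tlr6 windows, at chr5:64959117-64959416 on the minus strand, is shown because it alone among the 9 held the interferon-stimulated response element, sought as 2 copies of GAAA with 2 bases between them. The 2 matches overlap, are read on the opposite strand and are in capitals. The element occurs in 3.44% of all windows.
Tlr6: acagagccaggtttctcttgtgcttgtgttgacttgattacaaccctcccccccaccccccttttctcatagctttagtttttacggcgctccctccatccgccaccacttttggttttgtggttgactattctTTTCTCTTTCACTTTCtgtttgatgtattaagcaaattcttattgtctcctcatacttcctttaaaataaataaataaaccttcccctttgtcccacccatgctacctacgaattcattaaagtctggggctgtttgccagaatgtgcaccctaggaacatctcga

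Tlr4 encodes the lipopolysaccharide receptor. On the apilimod arrays it had 381, 109, 260.1 and 252 at 1, 3, 7 and 22 h. R848+API09 gave 349, 108, 288 and 389, and R848 alone gave 382, 101, 302 and 456. In medium it had 462 and 435 at 0 h, then 433, 408, 426 and 833. All treated arrays were below all medium arrays at 1, 3 and 7 h, lowest at 3 h, while the medium array at 22 h was the highest of the 18. R848 lowered Tlr4 at 3 h (-1.81 ± 0.11, adjusted p = 8.45e-07). The differences were -0.51 ± 0.11 at 7 h (adjusted p = 0.00495) and -0.96 ± 0.11 at 22 h (adjusted p = 5.34e-05). At 7 h the 2 other probe sets above the filter gave -0.35 (adjusted p = 0.154) and -0.26 (adjusted p = 0.216), and the mean over probe sets gave -0.29 (adjusted p = 0.063). Medium itself differed by 0.87 ± 0.11 between 22 h and 0 h (adjusted p = 0.000424).

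With apilimod the main Tlr4 probe set differed from the controls by 0.05 at 3 h and -0.17 at 7 h, neither of which passed, and by -0.71 ± 0.11 at 22 h (adjusted p = 0.000575). The probe sets disagreed here. The 2 others showed the fall with R848 at 3 h (-1.62 and -1.19) and again at 22 h (-0.72 and -1.32), and all 4 of these passed. For apilimod at 7 h they gave -0.32 (adjusted p = 0.24) and -0.48, which passed (adjusted p = 0.0372). At 22 h they gave -0.37 and 0.06, neither of which passed, and the mean over probe sets gave -0.26 (adjusted p = 0.0824).

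Tlr3, an endosomal receptor for double-stranded RNA, had 54.8, 31.4, 60.9 and 25.9 with R848+apilimod at 1, 3, 7 and 22 h. The R848+API09 arrays had 53.3, 47.0, 111 and 29.4, and the R848 arrays had 47.0, 47.0, 91.8 and 33.8. Medium had 53.3 and 50.8 at 0 h, and 51.2, 42.9, 60.5 and 41.9 after that. At 7 h both control arrays were above the rest, and the apilimod array was level with medium. R848 raised Tlr3 at 7 h by 0.61 ± 0.11 (adjusted p = 0.00175), and apilimod lowered it against these controls (-0.60 ± 0.11, adjusted p = 0.00264). At 3 h apilimod also lowered it (-0.41 ± 0.11, adjusted p = 0.0453), a call lost with either control array alone (adjusted p = 0.104 for both). The probe set used can match more than 1 transcript, by its _s_at name. The second Tlr3 probe set had 16.6 at 7 h with apilimod, against 28.6 with R848+API09 and 36.9 with R848 alone, and 15.8 in medium. It was above 18.1 on those 2 control arrays and no others.

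Tlr7 is the receptor that R848 binds. It had 641, 581, 505 and 226 on the apilimod arrays at 1, 3, 7 and 22 h. The R848+API09 arrays had 598, 410.3, 386 and 133, and the R848 arrays had 621, 404, 409.8 and 171. In medium it was 597 and 607 at 0 h, followed by 636, 526, 511 and 659. The fall was largest at 22 h, when all 3 treated arrays were below every other array of the series. At 3 and 7 h the R848+API09 and R848 arrays already lay below every medium array. R848 lowered Tlr7 at 22 h (-2.02 ± 0.12, adjusted p = 4.27e-07). Differences of -0.36 ± 0.12 at 3 h and -0.35 ± 0.12 at 7 h did not pass (adjusted p = 0.076 and 0.052), but both did under quantile normalization (adjusted p = 0.00706 and 0.006).

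Apilimod kept Tlr7 above the R848 controls at 3 h (0.50 ± 0.12, adjusted p = 0.0245) and at 22 h (0.54 ± 0.12, adjusted p = 0.00565), and the 7 h difference of 0.33 ± 0.12 did not pass. The 3 h call was lost with R848+API09 alone (adjusted p = 0.0687) or R848 alone (adjusted p = 0.0544) as control. The same 3 h call was lost with the mean over probe sets (0.30, adjusted p = 0.0608) and with a pseudocount of 1 (0.51, adjusted p = 0.0575). Tlr7 with apilimod was lower than in medium at 22 h (-1.48 ± 0.14, adjusted p = 7.78e-06). The difference from controls was not seen by every probe set. The other 2, of which the _x_at set can also match related transcripts, gave -1.52 and -1.39 for R848 at 22 h, both past the threshold. For apilimod at 22 h they gave 0.18 and -0.05, neither of which passed. Against R848 alone the apilimod difference at 22 h was 0.37 (adjusted p = 0.076).

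Tlr8, a neighbour of Tlr7 on the X chromosome and a receptor for single-stranded RNA in human cells, was near the filter level. It had 14.9, 16.7, 12.3 and 19.6 with R848+apilimod at 1, 3, 7 and 22 h. It had 16.2, 19.3, 28.0 and 16.7 with R848+API09, and 15.1, 17.9, 24.2 and 14.9 with R848 alone. The 6 medium arrays lay between 15.5 and 19.4. The control arrays at 7 h were the highest and the apilimod array of that hour the lowest of the 18. At 7 h Tlr8 passed as higher in the R848 controls than in medium (adjusted p = 0.00591) and as lower with apilimod than in the controls (adjusted p = 0.00108). The apilimod and medium arrays of that hour (12.3 and 15.5) were below the filter level, so no size is given for these differences.

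Tlr9, the endosomal receptor for unmethylated CpG DNA, ranged from 31.3 to 50.0 over the 18 arrays. It had 35.1, 42.9, 42.9 and 45.1 with R848+apilimod, 33.9, 43.4, 43.9 and 42.9 with R848+API09, and 41.0, 50.0, 31.3 and 43.9 with R848 alone. Medium arrays had 41.5 and 38.1 at 0 h and 45.6, 36.4, 35.4 and 45.7 later. The arms overlapped, and no comparison passed. These levels overlapped those of Cd4 (32.0 to 58.9) and Epcam (42.9 to 61.0), markers of other cell types. Whether Tlr9 exceeded background was not tested. The largest difference of R848 controls from medium was 0.26, at 3 h, and the largest of apilimod from the controls was 0.14, at 7 h.

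Tlr13, an X-linked endosomal receptor that recognises a sequence in bacterial ribosomal RNA, had the largest fall of the 10 at 22 h. It had 212, 59.2, 190.3 and 65.4 with R848+apilimod at 1, 3, 7 and 22 h. It had 197, 63.3, 76.3 and 28.7 with R848+API09, and 201, 66.6, 80.1 and 34.4 with R848 alone. The medium arrays had 205 and 210.2 at 0 h, then 200.2, 165, 133 and 262. All 3 treated arms had dropped by 3 h, and at 7 h the apilimod array was back above the medium array while both control arrays were below it. R848 lowered Tlr13 at all 3 hours after 1 h. The differences were -1.16 ± 0.10 at 3 h (adjusted p = 8.33e-06), -0.66 ± 0.10 at 7 h (adjusted p = 0.000311) and -2.55 ± 0.10 at 22 h (adjusted p = 8.26e-09). Its difference with apilimod at 3 h was -0.11, which did not pass. Apilimod then raised it over the controls by 1.13 ± 0.10 at 7 h (adjusted p = 5.97e-06) and 0.78 ± 0.10 at 22 h (adjusted p = 9.8e-05). Against medium, Tlr13 with apilimod was lower at 3 h (-1.26 ± 0.11), higher at 7 h (0.47 ± 0.11, adjusted p = 0.0067) and lower at 22 h (-1.77 ± 0.11). Medium itself fell at 7 h relative to 0 h (-0.59 ± 0.10, adjusted p = 0.035), a call lost without either 0 h array (adjusted p = 0.242 and 0.282).

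The Tlr13 window, at chrX:106143025-106143324 on the plus strand, is shown because this gene had the largest changes. Its 1 match among the motifs searched is to GAGGAA, the core bound by the macrophage factor PU.1, at -83 and in capitals. That motif is common: 28.3% of all windows hold it, as do windows of 4 of the 7 genes (Tlr1, Tlr8, Tlr9 and Tlr13). The AP-1 motif TGANTCA was matched for Tlr9 (7.81% of all windows) and the E-box CACGTG for Tlr1 (7.15%). All motifs were sought on both strands, and a match is a description of letters, not evidence of binding.
Tlr13: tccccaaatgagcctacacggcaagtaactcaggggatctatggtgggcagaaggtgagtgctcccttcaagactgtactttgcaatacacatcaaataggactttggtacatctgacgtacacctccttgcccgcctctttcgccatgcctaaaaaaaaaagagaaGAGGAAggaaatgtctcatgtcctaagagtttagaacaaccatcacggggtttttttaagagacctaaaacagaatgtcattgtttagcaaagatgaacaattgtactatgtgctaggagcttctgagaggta

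Unc93b1, the trafficking partner of the endosomal receptors, was the steadiest of the 10, with 1.28-fold between its highest and lowest arrays. It had 1529.9, 1395, 1249 and 1392 with R848+apilimod at 1, 3, 7 and 22 h. It had 1555, 1455, 1476 and 1396 with R848+API09, and 1501, 1495, 1420.5 and 1421 with R848 alone. In medium it had 1533 and 1571 at 0 h and 1583, 1444, 1233 and 1492 later. The apilimod and medium arrays at 7 h were the lowest. No comparison passed in the fit used: R848 controls differed from medium at 7 h by 0.23 ± 0.08 (adjusted p = 0.061), and apilimod from the controls by -0.21 ± 0.08 (adjusted p = 0.113). With trend and robust variances both had lower adjusted p (0.0156 and 0.0356) at the same differences.

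**Figure D2:**
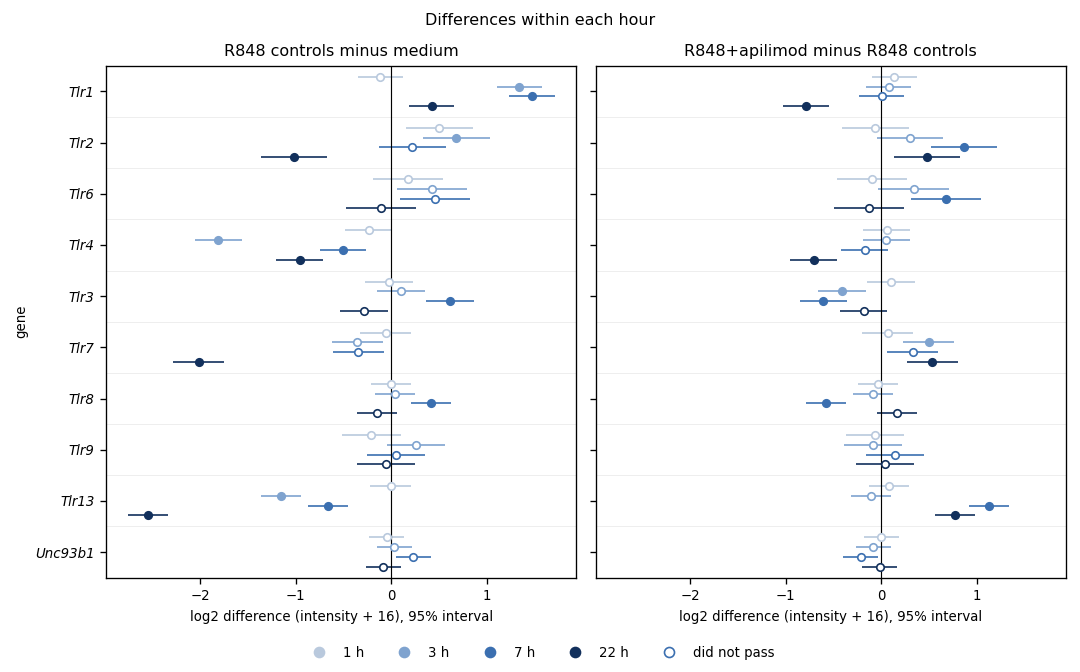
Log2 differences with 95% intervals for the 10 genes (rows) at 1, 3, 7 and 22 h, R848 controls minus medium and R848+apilimod minus R848 controls; filled points passed at an adjusted p of 0.05 and open points did not. Tlr13 is lowest at 22 h for R848 (-2.55) and highest at 7 h for apilimod (1.13).

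Relative to the R848 controls, apilimod raised 1 of the 10 genes and lowered 1 at 3 h, where 5.07% of all genes were higher and 4.12% lower (9.19% in all). At 7 h it raised 3 and lowered 2, against 9.81% higher and 9.81% lower (19.6% in all). At 22 h it again raised 3 and lowered 2, against 20.2% higher and 14.3% lower (34.5% in all). At 1 h none of the 10 passed in limma and none had an unadjusted p under 0.05, while 0% of all genes passed and 165 genes had an unadjusted p under 0.05. The genes above the controls were Tlr7 at 3 h, then Tlr2, Tlr6 and Tlr13 at 7 h, and Tlr2, Tlr7 and Tlr13 at 22 h. Those below were Tlr3 at 3 h, Tlr3 and Tlr8 at 7 h, and Tlr1 and Tlr4 at 22 h. Both sets of comparisons use the same R848 control arrays, so they are not independent. The apilimod arrays set against medium do not use the controls' levels, though their p-values rest on the same spread: at 3 h they gave 3 of 10 genes higher and 2 lower. At 7 h they gave 4 higher and 1 lower, and at 22 h 0 higher and 6 lower. Of all genes, 6.91% were higher and 9.64% lower at 3 h (16.5% in all), 12.3% and 19.1% at 7 h (31.3%), and 21.5% and 25.8% at 22 h (47.4%). At 1 h, where 0.604% of genes passed, none of the 10 did in limma, with 1 of them (Tlr2) at an unadjusted p under 0.05.

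Tests of change with time showed which effects differed between 3 and 22 h. The R848 effect differed for 5 of the 10 genes, against 25.3% of all genes, and the apilimod effect for 3 of the 10, against 22.8%. The R848 effect on Tlr7 was lower at 22 h than at 3 h (-1.66 ± 0.17, adjusted p = 6.53e-05), as was that on Tlr2 (-1.70 ± 0.22, adjusted p = 0.000341). The apilimod effect on Tlr13 was higher at 22 h than at 3 h by 0.88 ± 0.13 (adjusted p = 0.000946).

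Apilimod and API09 were given at the same dose and sampled at the same hours, which makes 1 pair of compounds. Averaged over the 4 hours with the hour as a block, R848+apilimod minus R848+API09 passed for none of the 10 genes and 0% of all genes in limma. Unadjusted, 1 of the 10 (Tlr3) and 1613 genes had a p under 0.05, and the smallest adjusted p was 0.123. This fit takes an arm difference as equal at all hours, so differences that change with the hour add to its spread. It therefore does not exclude differences at single hours, which are given below. The widths of the intervals differed by gene. They ran from -0.25 to 1.27 for Tlr13, -0.08 to 1.03 for Tlr2, -0.16 to 0.99 for Tlr7 and -0.73 to 0.46 for Tlr1. They were narrower for Tlr9 (-0.20 to 0.23) and Unc93b1 (-0.22 to 0.05).

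Hour by hour, with the R848+API09 array as the only control and the spread of the fit above, 0 of 10 genes passed at 1 h and at 3 h, 4 at 7 h and 5 at 22 h. The shares of all genes were 0%, 7.24%, 16.4% and 34.3%. At 3 h, 2 of the 10 had an unadjusted p under 0.05: Tlr7, with 0.49 ± 0.14, and Tlr3, with -0.41 ± 0.13. At 7 h Tlr13 was higher with apilimod than with API09 by 1.16 ± 0.11 (95% interval 0.92 to 1.40) and Tlr2 by 0.91 ± 0.18 (0.50 to 1.31), while Tlr3 was lower (-0.72 ± 0.13). The fourth, Tlr8, was lower on an apilimod array below the filter level. At 22 h Tlr13 (0.86 ± 0.11), Tlr2 (0.73 ± 0.18) and Tlr7 (0.70 ± 0.14) were higher, and Tlr1 (-0.73 ± 0.12) and Tlr4 (-0.60 ± 0.13) were lower. Against the R848 array at 22 h, 3 of the 10 genes and 26.7% of all genes passed: Tlr13 (0.69) was higher, and Tlr1 (-0.84) and Tlr4 (-0.82) were lower.

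R848+API09 minus R848 alone was also tested over the 4 hours, and passed for none of the 10 genes and 0% of all genes. None of the 10 had an unadjusted p under 0.05, and 182 genes did. The differences of the 10 genes ran from -0.18 (Tlr6, 95% interval -0.56 to 0.19) to 0.08 (Tlr8). Changes of arm differences with the hour widen the intervals of this fit, so they are not the spread of API09 against R848 alone. They ran from -0.84 to 0.68 for Tlr13 and from -0.70 to 0.40 for Tlr2, and were narrow for Unc93b1 (-0.12 to 0.15). Tlr13 differed by -0.02, -0.06, -0.06 and -0.17 at 1, 3, 7 and 22 h. Within an hour the largest absolute difference was 0.33 at 1 h (Tlr6), 0.15 at 3 h (Tlr9), 0.34 at 7 h (Tlr9) and 0.51 at 22 h (Tlr2). At 22 h the API09 array was the lower for 9 of the 10 genes, with a median difference of -0.15. Over all tested genes that array also had the lower median log2 level, 7.03 against 7.24 on the R848 array. The count and the median difference are therefore not read as particular to these genes.

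R848+apilimod minus R848 alone over the 4 hours also passed for none of the 10 genes and 0% of all genes in limma. Of the 10, 0 had an unadjusted p under 0.05. The limit of the fit over hours given above applies here too. R848 alone minus medium passed for none of the 10 over the 4 hours, where 4 had an unadjusted p under 0.05 and 0.995% of all genes passed. Without the 1 h arrays 3 of the 10 and 9.50% of all genes passed: Tlr1 (1.06) was higher, and Tlr4 (-1.06) and Tlr13 (-1.41) were lower.

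**Figure D3:**
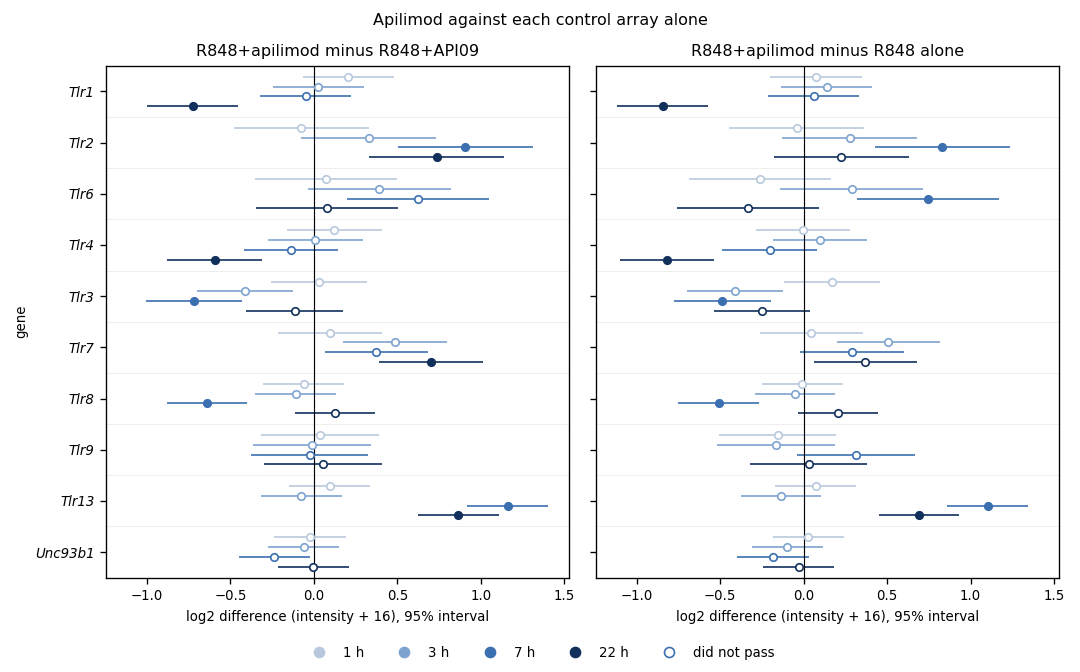
Log2 differences with 95% intervals at 1, 3, 7 and 22 h, R848+apilimod minus the R848+API09 array and R848+apilimod minus the R848 array; filled points passed and open points did not. Tlr2 and Tlr7 at 22 h passed against R848+API09 (0.73 and 0.70) and not against R848 alone (0.23 and 0.37).

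Medium cultures were followed from 0 h without any agent. None of the 10 genes passed at 1 h (0.408% of all genes) or 3 h (0.971%) in limma, with 0 and 3 of the 10 at an unadjusted p under 0.05. Tlr13 was the 1 gene of the 10 at 7 h (0.343% of all genes). At 22 h 3 were higher than at 0 h, against 11.2% of all genes higher (22.0% in either direction): Tlr4 (0.87 ± 0.11), Tlr1 (0.46 ± 0.11) and Tlr13 (0.32 ± 0.10). The Tlr13 call (adjusted p = 0.0354 in limma) was lost under 8 of 14 alternatives, a minimum difference of 1 included. Among them were a pseudocount of 1 (adjusted p = 0.0752) and trend and robust variances (adjusted p = 0.0785). That of Tlr1 was lost without the second 0 h array (0.39).

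Over the 18 arrays the levels of the 10 genes varied together in pairs that share treatment and hour, so these are descriptions. The highest Pearson correlation of log2 levels was 0.852, between Tlr7 and Tlr13, followed by 0.786 between Tlr1 and Tlr6 and 0.675 between Tlr2 and Tlr7. The lowest was -0.611, between Tlr2 and Tlr4. Among 12247 other genes, those most like Tlr13 were Prkdc (0.966), Mppe1 (0.935) and Helq (0.934), and those most like Tlr7 were Tlk1 (0.973), Extl2 (0.970) and Lrpprc (0.964). Tlr3 was most like Pnpt1 (0.974), Ctnnd1 (0.942) and Parp12 (0.939). Tlr1 was closest to Lcp2 (0.935), Cebpd (0.921) and Ticam1 (0.917), the last of which encodes the adaptor TRIF. Tlr2 was closest to Tns3 (0.961), Mllt6 (0.952) and Aff4 (0.948), and Tlr4 to Senp7 (0.962), Slc25a45 (0.959) and Wdfy2 (0.946). Tlr6 had Dync1li1 (0.917), Wdr37 (0.909) and Clcn6 (0.906). The steadier or dimmer genes had lower values: Tlr8 had Tmem98 (0.817), Notch1 (0.810) and Asb11 (0.805), Unc93b1 had Cd37 (0.780), Tln2 (0.773) and Klf13 (0.733), and Tlr9 had Arr3 (0.716), Icam5 (0.686) and Tpsg1 (0.674).

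The other genes of the pathway were counted in the same comparisons. These lists were chosen with earlier results of these data known, so the counts are descriptions. Of all genes, 9.19%, 19.6% and 34.5% passed in either direction for apilimod minus the controls at 3, 7 and 22 h. For R848 controls minus medium the shares were 15.4%, 29.8% and 45.7%. At 1 h none of these pathway genes passed for R848 or for apilimod, where 0.702% and 0% of all genes passed. Of 9 endosomal proteases and nucleases tested, apilimod raised 4 and lowered 0 at 3 h, raised 7 and lowered 1 at 7 h, and raised 4 and lowered 1 at 22 h. Ctsk, the collagen-cutting cathepsin K, had the largest differences, 1.07, 2.46 and 2.63 at these hours. At 7 h Lgmn (0.81), an asparagine-specific protease that can cut endosomal receptors, Pld3 (0.72), an exonuclease of endolysosomes, and Ctsb (0.66), cathepsin B, were higher as well. The median difference of these 9 genes was 0.37, 0.60 and 0.17 at 3, 7 and 22 h, against -0.03, -0.02 and 0.03 for all genes. R848 raised 1 and lowered 0 of the 9 at 3 h, raised 2 and lowered 2 at 7 h, and raised 2 (Pld3 1.37 and Ctsl 0.81) and lowered 4 at 22 h.

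Of 7 genes of endosomal sorting and transport, apilimod raised 2 at 3 h, 4 at 7 h and 5 at 22 h. It lowered none of them there. The largest difference at each was that of Slc29a3, a lysosomal nucleoside transporter, with 1.12, 1.30 and 1.26. The median of the 7 was 0.04, 0.31 and 0.41. R848 raised Slc15a3, a lysosomal transporter of histidine and peptides, by 1.73, 3.32 and 4.11 at 3, 7 and 22 h, and lowered Ap3d1, a subunit of the sorting adaptor AP-3, at 22 h (-1.66). Ap3d1 at 22 h was higher with apilimod than in the controls by 0.93.

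Of 6 co-receptor and accessory genes, R848 changed none at 3 h, raised 2 and lowered 1 at 7 h, and raised 3 and lowered 2 at 22 h. Ly96, whose product binds lipopolysaccharide with TLR4, was higher by 0.81 at 7 h, and Cd36, a scavenger receptor that assists TLR2 with TLR6, by 1.39 at 22 h. Ly86 was lower by then (-0.83), as was Cd180 (-0.73), which encodes the TLR-like partner of the Ly86 product. Apilimod raised Cd180 over the controls by 0.90 at 3 h, 1.05 at 7 h and 0.29 at 22 h. It lowered Cd14 (-0.49) and Cd36 (-0.37) at 7 h.

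Of 4 genes of receptor folding and export, R848 lowered 2 at 3 h (Cnpy4 -0.46 and Cnpy3 -0.38), 1 at 7 h and 1 at 22 h, where Hsp90b1, the chaperone of the receptors in the endoplasmic reticulum, differed by -0.28. Apilimod lowered 1 of them, Cnpy4, at 22 h (-0.41). Of the remaining Toll-like receptors, Tlr12 was tested and was higher with R848 at 22 h (0.29), where 45.7% of all genes passed. Its levels were low, 24.8 to 43.0, overlapping those of the T cell marker Cd4 (32.0 to 58.9). Tlr5 had 10.1 to 15.2, below the filter level on all arrays.

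**Figure D4:**
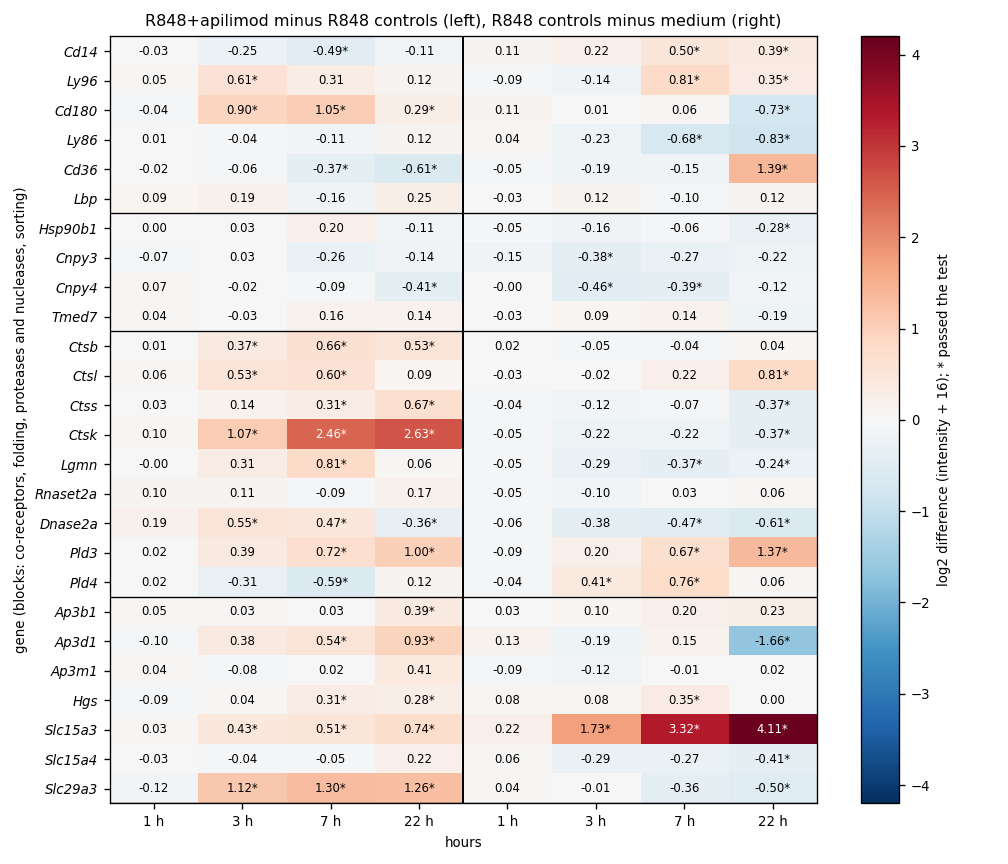
Heat map of log2 differences of the other tested genes of the pathway (Tlr12 aside; rows, in blocks of co-receptors, folding, proteases and nucleases, and sorting) at 1, 3, 7 and 22 h, with R848+apilimod minus R848 controls on the left and R848 controls minus medium on the right; an asterisk marks a difference that passed. Ctsk has the largest difference with apilimod (2.63 at 22 h) and Slc15a3 with R848 (4.11 at 22 h).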

How the data were processed

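RNA of RAW cells, 18 samples in all, was amplified with the NuGEN Ovation system and hybridised, per the labels' protocols, to Affymetrix mouse arrays. The authors deposited 1 intensity per probe set and array on a linear scale. The values are taken to be summarised and normalized already, since array medians differed little; the method is not given in the sources used here. Limma is named in the submitters' processing notes, without a version.

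Of 45101 probe sets, 64 were controls and were left out, 34945 of the rest had 1 symbol and 932 had several and were not used. Through Entrez identifiers, 34741 symbols were matched to RefSeq genes, whose symbol was then used whether or not it differed. The filter (above 18.1 on 3 arrays) kept 24154 probe sets, and the brightest probe set per gene gave 12257 genes. Log2(intensity + 16) was fitted in R 4.3.3 with limma 3.58.1, two-sided, with Benjamini-Hochberg adjustment over all genes in each of 22 comparisons. The fit within hours had 5 residual degrees of freedom before moderation, and the fit over hours had terms for arm and hour. Tests were checked on simulated data of independent normal noise with known changes, a gene's spread being the same on every array. For the fit over hours the added change was equal at all hours. Outlying arrays, lone arrays of another spread and, in that fit, effects that change with the hour were therefore not checked.

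The 10 genes and the pathway lists were chosen with earlier results of these data known. From each list, up to 4 genes with the largest absolute difference among those that passed were named, and for each of the 10 the 3 other genes with the highest correlation. Promoters came from the RefSeq table of GRCm38.p6, which matched 7 of the 10. In all, 22 alternatives were tried, including other normalizations, filters and pseudocounts, single controls and single arrays left out. The number of arrays limits the precision. Rnaset2b, Arl8b, Tasl, Tlr11 and Ly6g were not analysed here.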

Additional observations from a re-analysis of the deposited data

Results flagged for a closer look

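The effects of R848 and of apilimod were each compared between 22 h and 3 h in the same limma fit, and 8 of these differences passed with Benjamini-Hochberg adjustment over all genes. For R848 controls minus medium, the effect at 22 h minus that at 3 h was -0.92 ± 0.15 for Tlr1 (adjusted p = 0.00139), -1.70 ± 0.22 for Tlr2 (adjusted p = 0.000341), -1.66 ± 0.17 for Tlr7 (adjusted p = 6.53e-05) and -1.39 ± 0.13 for Tlr13 (adjusted p = 4.05e-05). It was 0.85 ± 0.16 for Tlr4 (adjusted p = 0.00264), whose fall was the larger at 3 h. For R848+apilimod minus R848 controls it was -0.87 ± 0.15 for Tlr1 (adjusted p = 0.00225), -0.76 ± 0.16 for Tlr4 (adjusted p = 0.00564) and 0.88 ± 0.13 for Tlr13 (adjusted p = 0.000946). Both differences of Tlr4 were lost with the mean over its probe sets (0.43, adjusted p = 0.0553, and -0.36, adjusted p = 0.106).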

How the results depend on the processing

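Of 220 differences (10 genes in 22 comparisons), 54 passed, and 39 of these, a minimum difference of 1 aside, passed under every alternative that tested them, while 15 were lost under at least 1. No difference that passed turned its sign. The counts of the 10 genes that passed moved as follows, and the cause was not tested. With a minimum absolute log2 difference of 1, it was 1 gene at 7 h and 3 genes at 22 h for R848 controls minus medium, 0, 1 and 0 at 3, 7 and 22 h for apilimod minus the controls, 3 at each of 3, 7 and 22 h for apilimod minus medium, 0 at 7 and 22 h for medium against 0 h, and 3 and 0 for the changes of the R848 and apilimod effects between 3 and 22 h. For R848 controls minus medium at 7 h, 8 passed after centring each array on its median and with trend and robust variances, in place of 5. For apilimod minus the controls at 3 h, 1 passed in place of 2 with centring, a pseudocount of 1, no filter, the stricter filter, the mean over probe sets or trend and robust variances, and 0 with R848 alone or R848+API09 alone as control. At 7 h the stricter filter left 3 in place of 5, since Tlr3 and Tlr8 were then not tested, and at 22 h the mean over probe sets left 3 and R848 alone as control left 3. For medium against 0 h, 1 passed at 3 h with quantile normalization, centring or trend and robust variances, in place of 0. At 7 h 0 passed with a pseudocount of 1 or no filter and 2 with trend and robust variances, in place of 1, and at 22 h 5 passed with centring, in place of 3. For R848 minus medium over all hours, 3 passed without the 1 h arrays (Tlr1 1.06, Tlr4 -1.06 and Tlr13 -1.41), in place of 0.

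In the fit within hours, 1 array at a time was left out, only from the R848+API09 arrays and the medium arrays at 0 h. The apilimod arrays, the R848 arrays and the later medium arrays were not left out in turn, so dependence on them was not tested. Leaving out 1 array gave 0 to 1 of the 10 genes for R848 controls minus medium at 1 h and 5 to 9 at 7 h. It gave 0 to 3 for apilimod minus the controls at 3 h, and 0 to 1 for apilimod minus medium at 1 h. It gave 0 to 2 for medium at 3 h, 0 to 2 at 7 h and 1 to 5 at 22 h. The highest of these counts came when the 22 h R848+API09 array was left out. The lowest came without the 3 h R848+API09 array for apilimod at 3 h, and without 1 of the 0 h arrays for medium at 22 h. Over all genes, the fit without the 1 h arrays called 545 for apilimod minus API09 and 481 for apilimod minus R848 alone, in place of 0. No paired analysis was possible because only the medium arrays at 0 h carry replicate numbers, while the hour, which the arms share, was already the block of the fit over all hours. The number of arrays limits the precision, and Tlr8 lay near the filter level on most of them.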
